A study of Mus musculus with 4 samples.

Results

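The 8 genes described here belong to the glucocorticoid pathway and were chosen by symbol, with no threshold on their measured values: Hsd11b1, Nr3c1, Nr3c2, Tsc22d3, Fkbp5, Per1, Sgk1 and Zbtb16. All 8 were found among the 18619 genes of the table. They were followed across stromal cell classes of the mouse small intestine, and across the level of Amotl2, a target gene of the transcriptional co-activators YAP and TAZ, in the fibroblasts of the villus. The cells came from adult mice that carried Pdgfrb-CreERT2 (a Cre recombinase made by Pdgfrb-expressing cells and switched on by tamoxifen), floxed Lats1 and Lats2 alleles (Lats1 fl/fl Lats2 fl/fl) and a Rosa26 tdTomato reporter, on a C57BL/6J background, 1 week after tamoxifen. Cells positive for Tomato were sorted and their RNA was counted in droplets (LATS1/2 KO 1w). LATS1 and LATS2 are the kinases that restrain YAP and TAZ. The Cre is active in any cell that uses the Pdgfrb promoter, so fibroblasts, smooth muscle and mural cells can all carry the deletion. The series has 4 libraries in 3 groups, and 1 library was analysed here. Neither the 2 WT libraries nor LATS1/2 KO 2w was analysed here, so nothing below compares knockout with wild type.

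Glucocorticoids reach tissues partly as inactive ketone forms (11-dehydrocorticosterone in the mouse). The enzyme 11β-hydroxysteroid dehydrogenase type 1, encoded by Hsd11b1, reduces them to the active hormone inside the cell. The hormone binds the glucocorticoid receptor (Nr3c1) or the mineralocorticoid receptor (Nr3c2), and the bound receptor enters the nucleus and switches on genes such as Tsc22d3, Fkbp5, Per1, Sgk1 and Zbtb16. Several of these genes also answer to other signals: Per1 is a core gene of the circadian clock, and Sgk1 responds to serum, osmotic and mechanical stress.

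In all, 4108 cells with 46054627 unique molecular identifiers (UMIs) were counted, with a median of 10726 UMIs and 3331.5 genes per cell. Each level is the count of a gene's UMIs in a set of cells scaled to 1000000 UMIs (CPM), and brackets give exact 95% intervals. Cells of 1 library are not replicates, so no test was made and the intervals cover counting error only, not the spread between mice. The study gives a pair of mice per group for its integrated data sets, and how many mice went into this library is not given in the sources used here. Column names mark 1983 cells M and 2125 cells F. The study divided cells by the female-specific transcript Xist, and here every cell marked F and no cell marked M had an Xist UMI. No barcode was shared by the marks. Y-linked UMIs in the 2004 cells with at least 5 Xist UMIs gave a bound on free RNA of 8.64% of the level in the whole library.

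Clustering without the 8 genes gave 10 clusters. Clusters 3, 7, 8, 9 and 10 met the marker lists of FB4 (submucosal fibroblasts, 4 of 4 markers), FB5 (subepithelial fibroblasts, 5 of 6), smooth muscle cells (SMC, 6 of 6), mural cells (MC, 7 of 7) and vFB3 (a villus fibroblast class, 5 of 5), and are called "-like". Foxl1 was the FB5 marker not met, and the channel genes Kcnj8 and Abcc9, known from mural cells, were among the leading genes of the FB5-like cluster. The other 3022 cells, in clusters 1, 2, 4, 5 and 6, are called Adamdec1-high fibroblasts and stand for the villus fibroblasts. Adamdec1 was 4083 to 6512 CPM in their clusters. The other markers of vFB1-2 did not set them apart from FB4-like cells: Shisa3 was 88.5 CPM against 125.3 in FB4-like cells, Serpina3n 150 against 234.2 and Cxcl13 131.0 against 127.0. Only clusters 2, 5 and 6 of them met at least 3 of the 4 markers of the villus classes vFB1-2. Adamdec1 was also 4237 CPM in the 76 SMC-like cells. There were 690 FB4-like, 205 FB5-like, 70 MC-like and 45 vFB3-like cells. Of the defining markers of other cell types, Pecam1, Krt8 and Msln had 0 UMIs, and Ptprc stood at 0.635 CPM in Adamdec1-high cells. The 4 immune markers summed to 26.3 CPM in Adamdec1-high and 57.2 CPM in FB5-like cells, most of it Lyz2 (20.04 and 54.8 CPM), with 0 UMIs of Ptprc in FB5-like cells. The MC-like cells carried a summed 60.5 CPM of 3 glial markers and 72.6 CPM of 2 markers of interstitial cells of Cajal, and the part of such cells in these values was not tested.

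The response gene Sgk1 encodes a serum- and glucocorticoid-induced kinase that regulates ion channels and transporters. Its promoter is shown because, of the 6 members with a promoter window, it alone had a complete palindromic glucocorticoid response element (the core letters ACANNNTGT between AGA and TCT) there, and because its level differed between cell classes in the data below. Windows of 300 bases, reaching 250 bases before and 50 after a transcript start, came from RefSeq on GRCm38.p6. They covered 6 of the 8 genes with 14 windows, 6 of them for Sgk1. The palindrome was found in 3 of 32851 windows (0.00913%), those of Acnat2, Gm35041 and Sgk1. The 9-base core alone was in 6.85% of all windows and in 2 of the 14 member windows, both of Sgk1. The letters GGAATG, bound by the TEAD factors through which YAP and TAZ act, were in 14.7% of all windows on either strand and in 1 of the 14. That was the Sgk1 window with the palindrome. The 250 bases before 3 of the starts are printed 5′ to 3′ in lower case. Capitals mark first the palindrome and then the TEAD letters on the opposite strand in Sgk1, and no match in the other windows. They are Sgk1 at chr10:21993640-21993889 (plus strand), Hsd11b1 at chr1:193242361-193242610 and Fkbp5 at chr17:28486150-28486399 (both minus strand).
Sgk1: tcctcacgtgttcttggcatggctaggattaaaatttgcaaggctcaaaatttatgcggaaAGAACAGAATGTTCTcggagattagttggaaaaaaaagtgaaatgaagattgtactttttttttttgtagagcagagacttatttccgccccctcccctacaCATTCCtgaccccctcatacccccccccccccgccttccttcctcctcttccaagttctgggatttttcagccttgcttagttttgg
Hsd11b1: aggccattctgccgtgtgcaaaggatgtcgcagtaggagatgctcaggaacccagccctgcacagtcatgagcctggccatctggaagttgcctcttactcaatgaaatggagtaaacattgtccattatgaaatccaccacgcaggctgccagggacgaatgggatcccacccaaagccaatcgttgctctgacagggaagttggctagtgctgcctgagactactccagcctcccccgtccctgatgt
Fkbp5: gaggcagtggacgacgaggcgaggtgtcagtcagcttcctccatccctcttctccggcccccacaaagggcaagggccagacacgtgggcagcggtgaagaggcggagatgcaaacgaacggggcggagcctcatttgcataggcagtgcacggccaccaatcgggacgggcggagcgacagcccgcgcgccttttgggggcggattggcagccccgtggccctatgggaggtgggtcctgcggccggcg
A match describes the letters of the window. No binding was measured here, and no match in 250 bases says nothing about more distant elements.

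Hsd11b1 (ENSMUSG00000016194, mm10 chromosome 1, 193221634 to 193264075, minus strand, protein coding) was the member past a ratio of 2 to Adamdec1-high fibroblasts in the most classes, 4 of 5. In the annotation it overlaps Gm38118 on its own strand and 4930570N18Rik and Lamb3 on the other, and how such reads were assigned is not given in the sources used here. It had 18884 UMIs in the library, and 85.6% of them lay in Adamdec1-high fibroblasts, which held 71.8% of all UMIs. Its level was 488.5 CPM (481 to 496.1) in Adamdec1-high fibroblasts and 293.6 CPM (282.2 to 305.3) in FB4-like cells. It was 116.9 CPM (93.8 to 144.0) in SMC-like, 70.8 CPM (50.8 to 96.1) in MC-like and 48.2 CPM (32.0 to 69.6) in vFB3-like cells. In FB5-like cells it was 21.2 CPM (15.9 to 27.7), 23.0 times lower than in Adamdec1-high fibroblasts. The free RNA bound for Hsd11b1 was 35.4 CPM, so the FB5-like level lay below it and is read as background. The vFB3-like interval included the bound. The intervals of the 4 lowest classes, vFB3-like villus fibroblasts among them, thus lay under those of Adamdec1-high and FB4-like cells, and the intervals of MC-like and vFB3-like cells overlapped each other.

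Counted per cell, Hsd11b1 was seen in 80.6% (79.1 to 82.0) of Adamdec1-high fibroblasts after each cell had been thinned to 5000 UMIs, and in 91.6% without thinning (median depth 10410 UMIs). The corresponding shares in FB5-like cells were 5.0% and 10.7% (median depth 11829 UMIs). After thinning, 40.8% of Adamdec1-high fibroblasts held at least 3 UMIs of Hsd11b1, 19.5% held 0, and the highest count was 19. In the same cells Nr3c1 was seen in 53.7%, Tsc22d3 in 55.8%, Per1 in 27.7%, Zbtb16 in 22.8%, Sgk1 in 17.4%, Fkbp5 in 8.66% and Nr3c2 in 3.17%. Hsd11b1 was therefore the member detected in the largest share of Adamdec1-high fibroblasts at equal depth. In vFB3-like villus fibroblasts it was seen in 15.9%, below Nr3c1 and Tsc22d3 (59.1% each), Sgk1 (40.9%) and Per1 (18.2%).

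**Figure D1:**
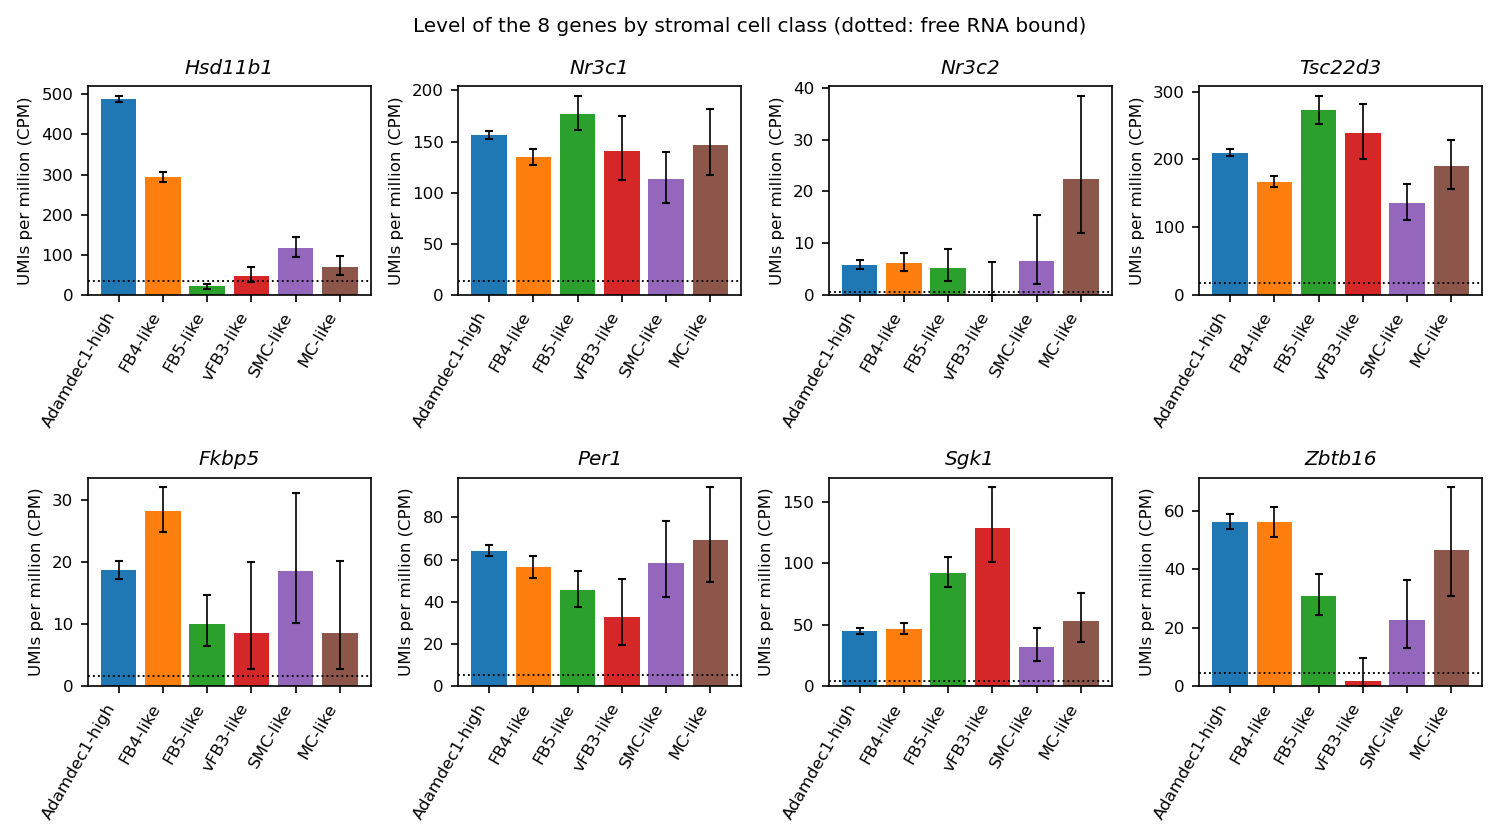
Level of each of the 8 genes (CPM, linear axes from 0) in the 6 cell classes, with exact 95% intervals for counting error; the dotted line is the free RNA bound. Hsd11b1 falls from 488.5 CPM in Adamdec1-high fibroblasts to 21.2 CPM in FB5-like cells, while Sgk1 is highest in vFB3-like cells at 129 CPM.

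Both receptors were followed next. Nr3c1 (ENSMUSG00000024431, chromosome 18, 39410545 to 39519421, minus strand), the glucocorticoid receptor, was nearly even across the classes. It stood at 177.3 CPM in FB5-like cells, 156.3 in Adamdec1-high, 146.9 in MC-like, 141.0 in vFB3-like, 135.0 in FB4-like and 112.9 in SMC-like cells. Every class thus lay within a ratio of 0.723 to 1.13 of Adamdec1-high fibroblasts. Its level in FB5-like cells was at least that in Adamdec1-high cells, while Hsd11b1 was at background there. Nr3c2 (ENSMUSG00000031618, chromosome 8, 76899442 to 77245012, plus strand), the mineralocorticoid receptor, had 278 UMIs in all. It was 22.5 CPM (12.0 to 38.4, 13 UMIs) in MC-like cells, 3.83 times (2.00 to 6.71) the Adamdec1-high level of 5.87 CPM. FB4-like, FB5-like and SMC-like cells lay at 5.20 to 6.64 CPM, and their intervals overlapped that of Adamdec1-high fibroblasts. No UMI of Nr3c2 was seen in vFB3-like cells, which allows up to 5.16 CPM. The high MC-like value rested on few cells: of its 13 UMIs, 10 were in the 30 cells marked M (41.8 CPM) and 3 in the 40 marked F (8.83 CPM).

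The 5 response genes had several orders across the classes. By level alone, Fkbp5 and Zbtb16 were highest in the same pair of classes as Hsd11b1, while Tsc22d3 and Sgk1 were highest in FB5-like and vFB3-like cells. The intervals did not set that pair apart: those of Fkbp5 in SMC-like cells (10.2 to 31.2 CPM) and Zbtb16 in MC-like cells (30.7 to 67.9 CPM) overlapped both its classes. Tsc22d3 (ENSMUSG00000031431, chromosome X, 140539528 to 140600659, minus strand) encodes GILZ, a leucine zipper protein that mediates anti-inflammatory effects of glucocorticoids. It was highest in FB5-like cells at 272.5 CPM, where Hsd11b1 was lowest, followed by vFB3-like at 239.1, Adamdec1-high at 210.1, MC-like at 190.1, FB4-like at 167.2 and SMC-like cells at 135.5 CPM. The FB5-like level was 1.30 times (1.2 to 1.40) that of Adamdec1-high fibroblasts. The order of the lower classes depended on the mark. In cells marked F, FB4-like cells were lowest at 105.1 CPM and MC-like (191.3) stood above Adamdec1-high cells (161.2), while in cells marked M, SMC-like cells were lowest at 139.0 CPM and MC-like (188.2) stood below Adamdec1-high cells (268.2). FB5-like cells were highest under both. Fkbp5 (ENSMUSG00000024222, chromosome 17, 28399094 to 28517527, minus strand) encodes a co-chaperone that lowers the receptor's affinity for hormone, and overlaps unnamed transcripts on both strands. It was highest in FB4-like cells at 28.3 CPM (24.8 to 32.1), against 18.7 in Adamdec1-high, 18.6 in SMC-like and 10.0 in FB5-like cells. MC-like and vFB3-like cells had 5 Fkbp5 UMIs each, or 8.64 and 8.60 CPM, with intervals that reached 20.2 and 20.1 CPM. Tsc22d3 and Fkbp5, often used side by side as readouts of the receptor, thus had different orders of classes.

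Sgk1 (ENSMUSG00000019970, chromosome 10, 21882184 to 21999903, plus strand), shown above with its response element, was 129 CPM (101.5 to 161.7) in vFB3-like and 92.4 CPM (80.9 to 105.2) in FB5-like cells. These were 2.87 times (2.24 to 3.62) and 2.05 times (1.78 to 2.36) the Adamdec1-high level of 45 CPM. MC-like cells had 53.6, FB4-like cells 46.9 and SMC-like cells 31.9 CPM, and the intervals of all these classes included the Adamdec1-high level. Zbtb16 (ENSMUSG00000066687, chromosome 9, 48654297 to 48836222, minus strand), which encodes the zinc finger repressor PLZF, had another order. It was 56.1 CPM in Adamdec1-high and 55.9 CPM in FB4-like cells, 46.7 in MC-like, 30.8 in FB5-like and 22.6 CPM in SMC-like cells. Among the 45 vFB3-like cells it had 1 UMI (1.72 CPM, 0.0436 to 9.58), a ratio of 0.0306 (0.000775 to 0.171) to Adamdec1-high fibroblasts and under its free RNA bound of 4.61 CPM. Per1 (ENSMUSG00000020893, chromosome 11, 69095217 to 69109960, plus strand) was 64.2 CPM in Adamdec1-high and 69.1 in MC-like cells, and was lowest in vFB3-like cells at 32.7 CPM, a ratio of 0.509 (0.306 to 0.797). The vFB3-like cells were thus the class with the highest Sgk1 and the lowest Zbtb16 and Per1.

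The members were set against all genes with at least 100 UMIs at a ratio of 2 to Adamdec1-high fibroblasts. In FB4-like cells 0 of 8 members were at or past it in either direction (3.45% of the 11467 genes higher, 6.03% lower). In FB5-like cells 1 was higher (Sgk1, background 5.39%) and 1 lower (Hsd11b1, background 11.4%). In vFB3-like cells 1 was higher (Sgk1, 7.97%) and 4 were lower (Hsd11b1, Nr3c2, Fkbp5 and Zbtb16, 15.6%), of which Nr3c2 and Fkbp5 had 0 and 5 UMIs and intervals that reached 1.09 and 1.08. SMC-like cells had 0 higher (6.38%) and 2 lower (Hsd11b1 and Zbtb16, 12.8%). MC-like cells had 1 higher (Nr3c2, 9.72%) and 2 lower (Hsd11b1 and Fkbp5, 14%), and the Fkbp5 interval reached 1.09. Over the 40 pairs of member and class, 12 were past 2, 4 of them of Hsd11b1 and 5 of them in vFB3-like cells.

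A list of 22 further glucocorticoid response genes, 20 of them with at least 100 UMIs, was set beside the members. Its median ratio to Adamdec1-high fibroblasts was 1.17 in FB4-like cells (all genes 0.922), with 4 genes at least 2 times higher and 1 lower (3.45% and 6.03% of all genes). The highest were the cell cycle inhibitor Cdkn1c at 120.9 CPM (ratio 3.62) and the metallothionein Mt2 at 118.9 CPM (2.56), and the lowest were the metabolic regulator Klf15 at 18.7 CPM (0.647) and the G protein regulator Rgs2 at 28.7 CPM (0.295). In vFB3-like cells the median was 0.589 (all genes 1.05), with 0 genes higher and 9 lower (7.97% and 15.6%). Angptl4 (ratio 1.88) and Cdkn1c (1.29) were highest there, and Errfi1 (0.149) and Bcl6 (0.0934, 1 UMI) lowest. FB5-like cells had a median of 0.856 (all genes 1.0), 1 gene higher and 5 lower (5.39% and 11.4%), from Cebpb (2.50) and Mt2 (1.76) to Cdkn1c (0.276) and Rgs2 (0.197). SMC-like cells had a median of 0.822 (all genes 0.990), with 0 higher and 2 lower (6.38% and 12.8%), from Rgs2 (1.91) and Cdkn1c (1.39) to Mt1 (0.455) and Bcl6 (0.433, 6 UMIs). MC-like cells had a median of 1.59 (all genes 0.985), with 6 higher and 2 lower (9.72% and 14%). The p53 target Cdkn1a (9.75) and Cdkn1c (5.07) led there, and Mt2 (0.409) and Rgs2 (0.390) were lowest. The 7 immediate early genes moved across the same classes: their median ratio was 0.220 in vFB3-like, 0.254 in FB5-like, 1.58 in FB4-like and 2.31 in MC-like cells. Their part in the response genes was not tested across the classes.

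Of the genes that handle the steroid, H6pd, whose enzyme supplies the cofactor for Hsd11b1 in the endoplasmic reticulum, was 128.4 CPM in Adamdec1-high fibroblasts, 91.3 in FB4-like, 110.8 in FB5-like, 182.3 in vFB3-like, 89.9 in MC-like and 46.5 CPM in SMC-like cells. Its order was not that of Hsd11b1. Hsd11b2, which encodes the opposite, inactivating enzyme, had 28 UMIs in Adamdec1-high fibroblasts (0.847 CPM), 5 in FB4-like cells and 0 in the other classes. The limits set by a count of 0 there ran from 1.2 to 5.18 CPM. Cyp11a1, the first enzyme of steroid synthesis, had 2 UMIs, both in Adamdec1-high fibroblasts. Among 13 machinery genes with at least 100 UMIs, 0 passed a ratio of 2 in FB4-like cells. The lowest there were the receptor co-chaperone Fkbp4 (0.634) and H6pd (0.711), and the co-regulator Nrip1 stood at 1.48. In MC-like cells the drug and steroid exporter Abcb1a (3.35, 13 UMIs) and the receptor's chaperone Hsp90aa1 (2.12) were past 2, and Ncoa1 (0.673) and Nrip1 (0.670) were lowest. In vFB3-like cells Nrip1 (2.50) was past it, followed by the co-chaperone Ptges3 (1.57), and Ncoa1 stood at 0.741. In SMC-like cells the coactivator Ncoa3 (2.10) was past 2 upward and H6pd (0.362) downward, with Abcb1a at 1.78 and Ncoa1 at 0.790. In FB5-like cells Abcb1a (0.477, 8 UMIs) was past it downward, Ncoa3 stood at 0.647 and the co-chaperone Stip1 at 1.43.

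The members also varied from cluster to cluster within the Adamdec1-high fibroblasts. Amotl2 was 193.3 CPM in cluster 1 and 284.4 in cluster 4, against 50.3 in cluster 2, 59.3 in cluster 6 and 79.8 in cluster 5. Hsd11b1 ran nearly opposite: 726.0 CPM in cluster 6 and 679.8 in cluster 2, then 462.2 in cluster 5, 431.7 in cluster 1 and 286.0 in cluster 4. The highest was 2.54 times (2.40 to 2.69) the lowest. Fkbp5 was also low in both clusters with high Amotl2, at 9.11 CPM in cluster 1 and 14.4 in cluster 4, against 21.5 to 27.5 CPM in clusters 2, 5 and 6. For Fkbp5 the intervals of clusters 1 and 4 did not reach those of clusters 2 and 5.

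Sgk1 and Zbtb16 had another pattern in these clusters. Sgk1 was 81.4 CPM in cluster 4, 64.0 in cluster 5, 33.8 in cluster 1, 25.4 in cluster 6 and 13.4 in cluster 2, a ratio of 6.07 (4.88 to 7.61) from highest to lowest. Zbtb16 was 113.0 CPM in cluster 5, 63.1 in cluster 4, 56.4 in cluster 2, 37.6 in cluster 6 and 18.7 in cluster 1, a ratio of 6.05 (5.10 to 7.22). Per1 had a smaller range, from 44.9 CPM in cluster 1 to 79.4 in cluster 5 (ratio 1.77). Nr3c1 and Tsc22d3 ranged over 1.32 and 1.29 times. The summed level of 7 immediate early genes (the Fos and Jun family and others transcribed soon after many stimuli) was 9598 CPM in cluster 5, 5904 in cluster 4, 2074 in cluster 2, 1538 in cluster 6 and 528.4 in cluster 1. Clusters 5 and 4 thus held the most early gene RNA and the most Sgk1, Zbtb16, Per1 and Nr3c1, and cluster 1 the least early gene RNA and the least Zbtb16, Per1, Fkbp5 and Nr3c1. These places were the same in cells marked M and in cells marked F. The order of Tsc22d3 was not: cells marked F made up 65.4% of cluster 1 and 36.7% of cluster 5, and among them Tsc22d3 stood at 161.2 CPM in the former and 150.3 in the latter.

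**Figure D2:**
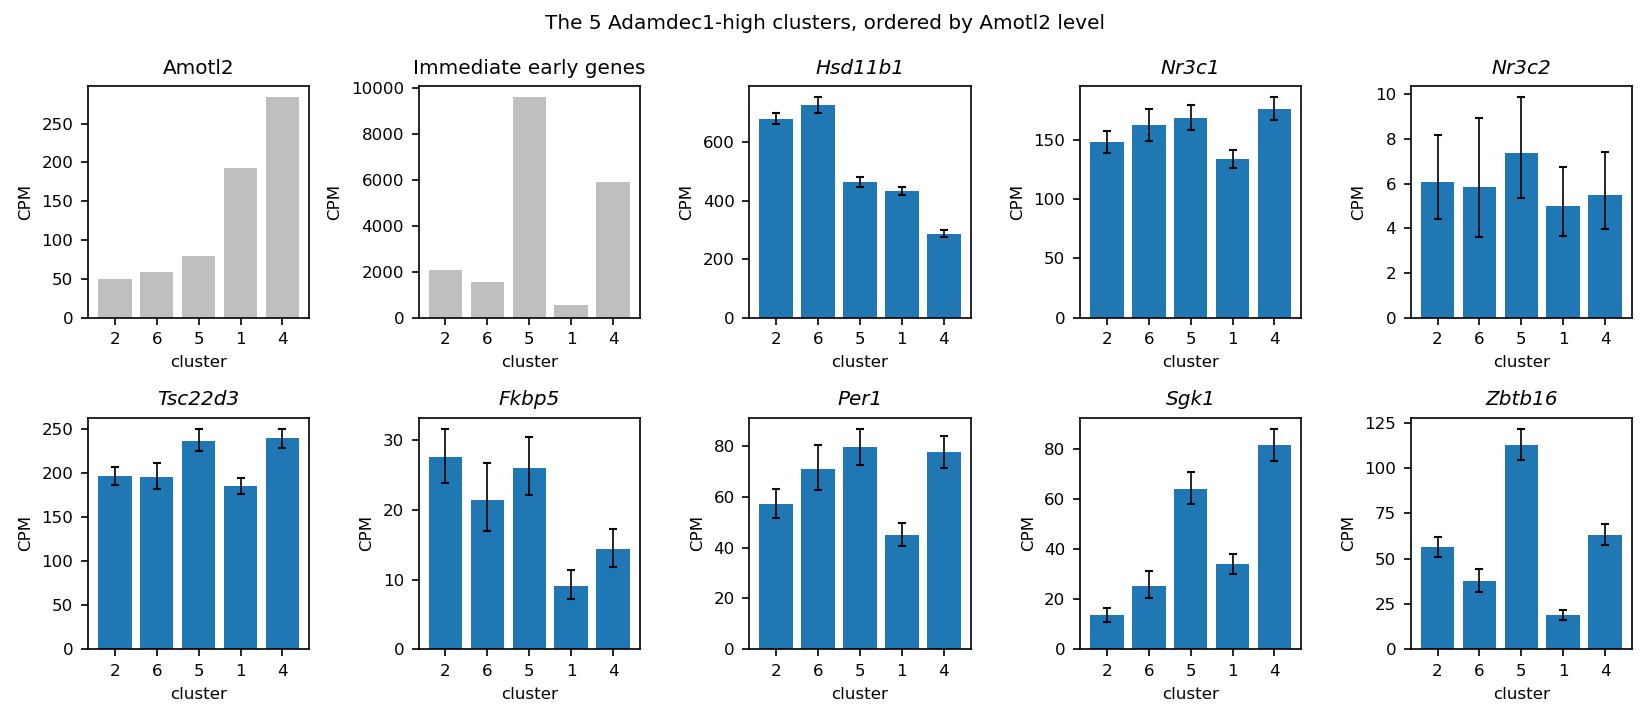
Amotl2, the summed immediate early genes (both grey) and the 8 genes (blue, with exact 95% intervals) in the 5 Adamdec1-high clusters, in CPM from 0, with clusters ordered by Amotl2 level from left to right. Hsd11b1 is lowest in cluster 4 (286.0 CPM), the cluster with most Amotl2, and Zbtb16 is highest in cluster 5 (113.0 CPM), the cluster with most early gene RNA.

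The study states that early gene expression could be an artifact of cell dissociation, although it found PDGFRβ+ Fosb+ cells in vivo. The part of dissociation in the values here was not tested, and the early genes were not removed before clustering. Early gene level was then used to divide the same fibroblasts at its median of 1893 CPM. Zbtb16 was 86.5 CPM in the 1511 cells above and 26.2 CPM in the 1511 below it, a ratio of 3.30 (2.96 to 3.68). Sgk1 was 64.1 against 26.2 CPM (ratio 2.45, 2.19 to 2.75) and Per1 76.2 against 52.3 CPM (1.46). Fkbp5 (1.36), Tsc22d3 (1.17) and Nr3c1 (1.16) were higher by less, and the Nr3c2 interval included 1. Hsd11b1 was lower, 436.6 against 539.7 CPM (0.809). At a ratio of 1.5, 2 of the 8 members were higher (6.27% of 10899 genes) and 0 lower (2.14%), and 54.6% of all genes were above 1 (median 1.02). Cells marked F were 45.5% of the cells above and 55.6% of those below. Within M and F the ratio was 3.22 and 3.18 for Zbtb16, 2.15 and 2.67 for Sgk1, 1.48 and 1.41 for Per1 and 1.12 and 1.10 for Tsc22d3. That of Fkbp5 was 1.43 in M and 1.19 (0.933 to 1.52) in F, and that of Hsd11b1 was 0.784 and 0.840. The ratios for Zbtb16 and Sgk1 held in cells with 0 Amotl2 UMIs (3.24 and 2.20) and with at least 2 (3.74 and 2.59).

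The question of Amotl2 itself was put cell by cell. After thinning to 5000 UMIs, 1730 Adamdec1-high fibroblasts held 0 Amotl2 UMIs, 741 held 1, 319 held 2 and 177 held 3 or more. Across these 4 strata Hsd11b1 was 561.9, 446.3, 349.6 and 305.8 CPM, so each step was lower than the last, and no interval reached the next. Fkbp5 was 22.9, 14.4, 13.1 and 10.5 CPM, with a clear step from the first stratum to the second and overlapping intervals after it. Sgk1 went the other way, at 38.0, 51.9, 54.7 and 58.2 CPM, also with its one clear step between the first and second strata. Per1 was 61.3, 65.3, 68.0 and 71.3 CPM and Nr3c1 150.8, 157.0, 164.2 and 178.0 CPM. Zbtb16 was 61.2, 49.0, 47.3 and 54.2 CPM, and Tsc22d3 and Nr3c2 had overlapping intervals throughout.

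Cells with at least 2 Amotl2 UMIs (496 cells) over cells with 0 gave a ratio of 0.593 (0.565 to 0.622) for Hsd11b1 and of 0.529 (0.408 to 0.679) for Fkbp5. It was 1.47 (1.29 to 1.68) for Sgk1, 0.816 for Zbtb16, 1.13 for Per1, 1.12 for Nr3c1 and 1.04 for Tsc22d3. Nr3c2 gave 0.788 with an interval that included 1. At a ratio of 1.5, 2 of the 8 members were called lower (3.28% of 10403 genes) and 0 higher (3.48%). Hsd11b1 stood 168th and Fkbp5 111th from the lowest of these genes, and Sgk1 at percentile 96.2. Amotl2 defined the strata, so its own ratio is no result. The YAP/TAZ targets Ajuba (2.55), Cyr61 (2.01) and Lats2 (1.68) were higher with it, whereas Ctgf (1.38) and Axl (0.907) did not reach 1.5. Lats2 was itself a target of the deletion, and 3-prime UMIs need not come from its deleted part, so its level does not check the knockout. Amotl2-high cells were deeper (median 11760 against 9972 UMIs) and more often marked F (57.5% against 46.8%), and their early gene level was 3912 against 3750 CPM. In cells with 8000 to 14000 UMIs the ratio was 0.575 for Hsd11b1, 0.469 for Fkbp5 and 1.71 (1.45 to 2.0) for Sgk1, which there passed 1.5. Sgk1 also passed it with at least 3 Amotl2 UMIs (1.53) and without the cells of highest doublet score (1.54). Sgk1 stayed below 1.5 with thinning to 2000 UMIs (1.197, 1.064 to 1.343) and with at most 5% mitochondrial UMIs (1.274). The same held with classes from marker scores per cell (1.454) and with another seed of the thinning (1.481).

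The values for Sgk1 and Zbtb16 depended on how YAP/TAZ target level was measured. Between the 756 cells with the most and the 756 with the least summed Ajuba, Cyr61, Ctgf and Lats2, without Amotl2 (Ankrd1, also summed, had 0 UMIs), Sgk1 was 77.1 against 24.3 CPM, a ratio of 3.17 (2.69 to 3.75). Zbtb16 was 71.7 against 54.9 CPM there (1.31, 1.15 to 1.48), so its direction turned. Hsd11b1 (0.597) and Fkbp5 (0.620) remained past 1.5 downward. Cyr61 made up most of the summed targets in Adamdec1-high cells, with 12684 UMIs against 2107 of Ctgf, 1835 of Lats2 and 313 of Ajuba. The sets of cells were not matched for early gene level, and its part in the Sgk1 and Zbtb16 ratios was not tested. Clusters 1 and 4 over clusters 2 and 6, the highest and lowest in Amotl2, gave 3.21 (2.74 to 3.78) for Sgk1, 0.523 for Hsd11b1, 0.454 for Fkbp5 and 0.787 for Zbtb16. Cluster 5, also low in Amotl2 at 79.8 CPM, was on neither side. Its Sgk1 level of 64.0 CPM was above that of cluster 1 (33.8 CPM), so the Sgk1 ratio depends on leaving it out.

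**Figure D3:**
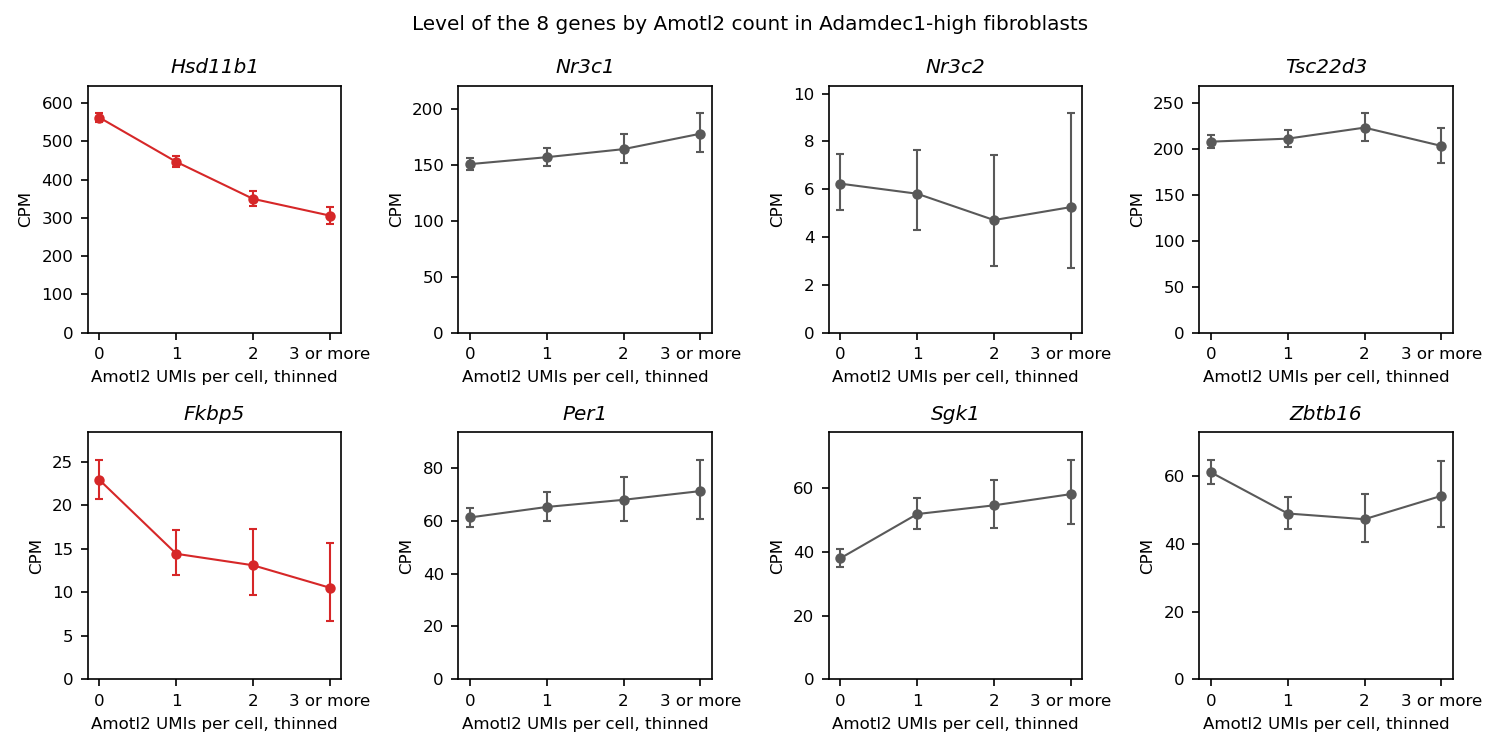
Level of each of the 8 genes (CPM, axes from 0, exact 95% intervals) in Adamdec1-high fibroblasts by the number of Amotl2 UMIs in the cell after thinning to 5000 UMIs. Hsd11b1 (561.9 to 305.8 CPM) and Fkbp5 (22.9 to 10.5 CPM), in red, go down from left to right, and Sgk1 goes up from 38.0 to 58.2 CPM.

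The Amotl2 strata also differed in cluster makeup: cluster 1 held 35.5% and cluster 4 held 48.6% of the cells with at least 2 UMIs, against 18.4% and 10.4% of those with 0. Within single clusters the Hsd11b1 ratio was 0.878 (0.809 to 0.953) in cluster 1, 0.807 (0.725 to 0.898) in cluster 4, 0.782 (0.660 to 0.921) in cluster 5, 0.619 (0.499 to 0.758) in cluster 6 and 0.618 (0.516 to 0.734) in cluster 2. It was thus below 1 in all 5 clusters, but past 1.5 only in clusters 2 and 6, which had 24 and 19 cells with at least 2 Amotl2 UMIs. The Fkbp5 ratios were 0.719, 0.834, 0.776, 0.599 and 0.768 in clusters 1, 4, 5, 6 and 2, all below 1 and all with intervals that included 1. For Sgk1 the ratio was 1.07 in cluster 1, 0.844 in cluster 4, 1.62 (1.14 to 2.25) in cluster 5, 1.53 in cluster 6 and 0.966 in cluster 2, so its direction differed between clusters. So did that of Zbtb16, at 1.275 (1.005 to 1.626) in cluster 4. Elsewhere Zbtb16 ran from 0.812 in cluster 1 to 0.899 in cluster 6, with intervals that included 1. Of the 8 members, 0 were past 1.5 within clusters 1 and 4, which held most cells with high Amotl2. In each of these clusters 6 members had at least 100 UMIs, and the share of all genes past 1.5 was not computed there. Over clusters 2, 5 and 6 together, those that met the vFB1-2 markers, 79 cells had at least 2 Amotl2 UMIs. The ratio there was 0.646 (0.582 to 0.716) for Hsd11b1, 0.731 (0.435 to 1.16) for Fkbp5, which was no longer past 1.5, and 1.81 (1.34 to 2.41) for Sgk1, which now was. Nr3c2 was 0.337 there, with an interval that included 1.

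The pattern was present above and below the median early gene level. Below it the Amotl2-high over Amotl2-low ratio was 0.616 (0.578 to 0.657) for Hsd11b1 and 0.365 (0.223 to 0.568) for Fkbp5. Above it the ratios were 0.574 (0.534 to 0.616) and 0.646 (0.468 to 0.877). Sgk1 was 1.28 (0.991 to 1.63) below and 1.51 (1.29 to 1.76) above the median. Among the members with at least 100 UMIs, 2 were called lower below the median (background 3.24%) and 0 higher (3.89%). Above it 2 were lower (3.57%) and 1 was higher (4.11%).

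**Figure D4:**
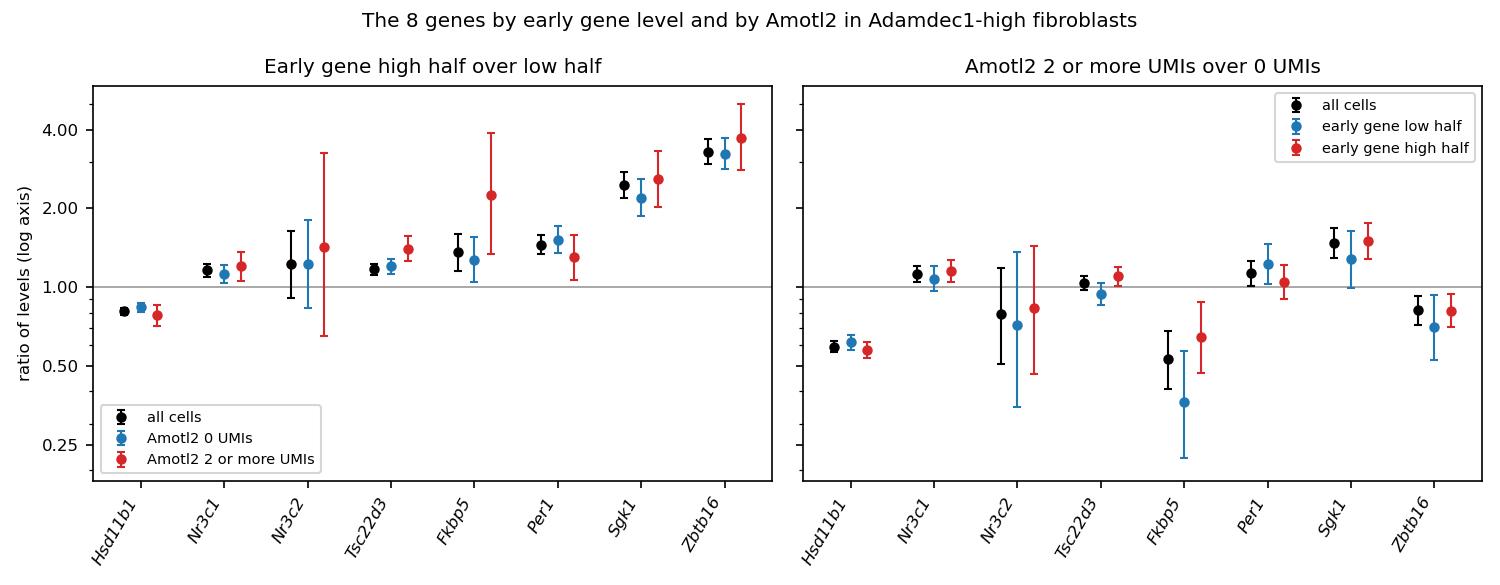
Ratios of level for the 8 genes in Adamdec1-high fibroblasts on a log axis with exact 95% intervals: left, cells above over cells below the median early gene level, in all cells and by Amotl2 count; right, Amotl2 of 2 or more over 0 UMIs, in all cells and by early gene level. Zbtb16 (3.30) and Sgk1 (2.45) stand highest on the left, and Hsd11b1 (0.593) and Fkbp5 (0.529) lowest on the right.

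In the wider response list, 14 of 20 genes with at least 100 UMIs were below 1 with Amotl2 (46.8% of all genes), most by less than Hsd11b1 and Fkbp5. At a ratio of 1.5, 0 were higher (3.48% of all genes) and 1 was lower (3.28%): Ddit4, an inhibitor of mTORC1 signalling, at 31.4 against 67.5 CPM (0.465, 0.398 to 0.542). The next lowest was the transcription factor Cebpd (0.764), and the highest were Anxa1, which encodes the anti-inflammatory protein annexin A1 (1.49), and Klf15 (1.44). The median was 0.886, against 1.01 over all genes. Among 13 machinery genes 0 were higher (3.48% of all genes) and 1 was lower (3.28%), Abcb1a at 0.594 (4.91 against 8.27 CPM). Nrip1 followed at 0.786, and H6pd (1.32) and Ncoa2 (1.13) were highest. H6pd and Hsd11b1, whose products work as a pair, thus had ratios on opposite sides of 1. Of 11 clock genes and 7 immediate early genes, 0 were past 1.5 (3.48% of all genes higher, 3.28% lower).

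Whether response genes followed the activating enzyme from cell to cell was examined in the same fibroblasts, with 577 cells at 0, 674 at 1 and 1716 at 2 or more Hsd11b1 UMIs after thinning. Fkbp5 was 13.9, 18.8 and 20.3 CPM across these strata, a ratio of 1.46 (1.16 to 1.85) from the last to the first. Sgk1 was 57.8, 55.8 and 36.1 CPM (0.624, 0.549 to 0.709). Zbtb16 at 53.8, 54.9 and 57.1 CPM and Per1 at 66.8, 65.5 and 62.1 CPM had ratios of 1.06 and 0.930 with intervals that included 1. Tsc22d3 went from 218.3 to 203.4 CPM (0.932). At a ratio of 1.5, 1 of the 5 response members was lower (Sgk1, background 1.91%) and 0 were higher (1.92%). Below the median early gene level, however, Fkbp5 was 17.2 against 9.46 CPM (1.81, 1.22 to 2.79) and Zbtb16 28.3 against 17.6 CPM (1.61, 1.2 to 2.19), both past 1.5 upward, and Sgk1 was 0.817 (0.637 to 1.06). These ratios set 923 cells with 2 or more Hsd11b1 UMIs against 255 with 0. The share of all genes past 1.5 was not computed for them. Above the median the ratios were 1.34 for Fkbp5, 1.06 for Zbtb16 and 0.611 for Sgk1. Amotl2 moved along, from 225.1 CPM in cells without Hsd11b1 UMIs to 111.8 CPM in those with 2 or more. In cells with 0 Amotl2 UMIs the ratio was 1.35 (0.991 to 1.89) for Fkbp5 and 0.551 (0.455 to 0.670) for Sgk1, and in cells with at least 2 it was 0.886 (0.501 to 1.57) and 0.837 (0.641 to 1.09).

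The marks M and F divided the response genes, too, a comparison added after the values had been seen. In Adamdec1-high fibroblasts Tsc22d3 was 161.2 CPM in the 1527 cells marked F and 268.2 CPM in the 1495 marked M, a ratio of 0.601 (0.573 to 0.631). Zbtb16 was 45.3 against 69.0 CPM (0.656, 0.598 to 0.720), Fkbp5 15.4 against 22.6 CPM (0.684, 0.582 to 0.804) and Sgk1 38.3 against 53.0 CPM (0.722, 0.651 to 0.80). Per1 was 60.2 against 68.9 CPM (0.874, 0.802 to 0.953). All 5 response members were therefore lower in the cells marked F, and none of the intervals reached 1. So was the mineralocorticoid receptor Nr3c2, at 4.90 against 7.01 CPM (0.699, 0.521 to 0.937). The enzyme and the glucocorticoid receptor were not: Hsd11b1 was 509.4 against 463.7 CPM (1.10, 1.07 to 1.13) and Nr3c1 157.3 against 155.0 CPM (1.02, 0.96 to 1.07). At a ratio of 1.5, 2 of 8 members were called lower (1.35% of 10906 genes) and 0 higher (1.55%). The median over the members was 0.711 and over all genes 0.981.

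The difference between the marks recurred across clusters. Tsc22d3 was lower in F in 5 of 5 Adamdec1-high clusters (0.502 to 0.715) and Zbtb16 in 5 of 5 (0.637 to 0.816). Fkbp5 and Sgk1 were lower in 4 of 5, the exceptions being cluster 4 for Fkbp5 (1.01) and cluster 2 for Sgk1 (1.24), and Per1 in 3 of 5. FB4-like cells gave 0.421 (0.377 to 0.469) for Tsc22d3, 0.646 for Zbtb16, 0.694 for Fkbp5, 0.747 for Sgk1 and 0.806 for Per1, all with intervals below 1, and 0.988 (0.913 to 1.07) for Hsd11b1. In FB5-like cells Tsc22d3 (0.678) and Sgk1 (0.597) were lower with intervals below 1. In the few SMC-like and MC-like cells Tsc22d3 was 0.964 (0.626 to 1.51) and 1.02 (0.684 to 1.52), Sgk1 was 1.07 and 1.28, and Zbtb16 was 0.629 and 0.653, all with intervals that included 1. Nr3c1 (0.597) and Nr3c2 (0.211) were lower in F in MC-like cells, with intervals below 1. Of 20 other response genes, 15 were below 1 (median 0.808), against 56.3% of all genes, with Cdkn1a (0.488) and Ddit4 (0.631) lowest and Mt1 (1.19) and Anxa1 (1.15) highest. At a ratio of 1.5, 2 of them were lower (1.35% of all genes) and 0 higher (1.55%). Of 13 machinery genes 10 were below 1, 0 were past 1.5, and H6pd (1.07) and Abcb1a (1.01) were highest, with Fkbp4 at 0.870.

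The circadian genes moved between the marks as well. Of 11 clock genes with at least 100 UMIs, 6 were at least 1.5 times higher in F (1.55% of all genes) and 0 lower (1.35%). The higher ones were Dbp at 37.6 against 6.22 CPM (6.05, 4.87 to 7.59), Nr1d1 at 76.0 against 29.0 CPM (2.62, 2.35 to 2.93), Per3 (2.26), Tef (2.23), Hlf (2.15) and Nr1d2 (1.90). Arntl, which encodes the activator BMAL1, was lower in F at 22.7 against 32.2 CPM (0.704, 0.616 to 0.805), as was Cry1 (0.699). Dbp and Nr1d1 were higher in F in all 5 Adamdec1-high clusters. The early genes were lower in F (mean 3278 against 4461 CPM), and F cells were deeper (median 11288 against 9791 UMIs). Below and above the median early gene level Tsc22d3 was 0.612 and 0.604, and Zbtb16 0.734 and 0.725. The marks divide the library by Xist, so sex, animal and time of collection cannot be told apart, and their part in the differences was not tested. Tsc22d3 lies on the X chromosome.

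**Figure D5:**
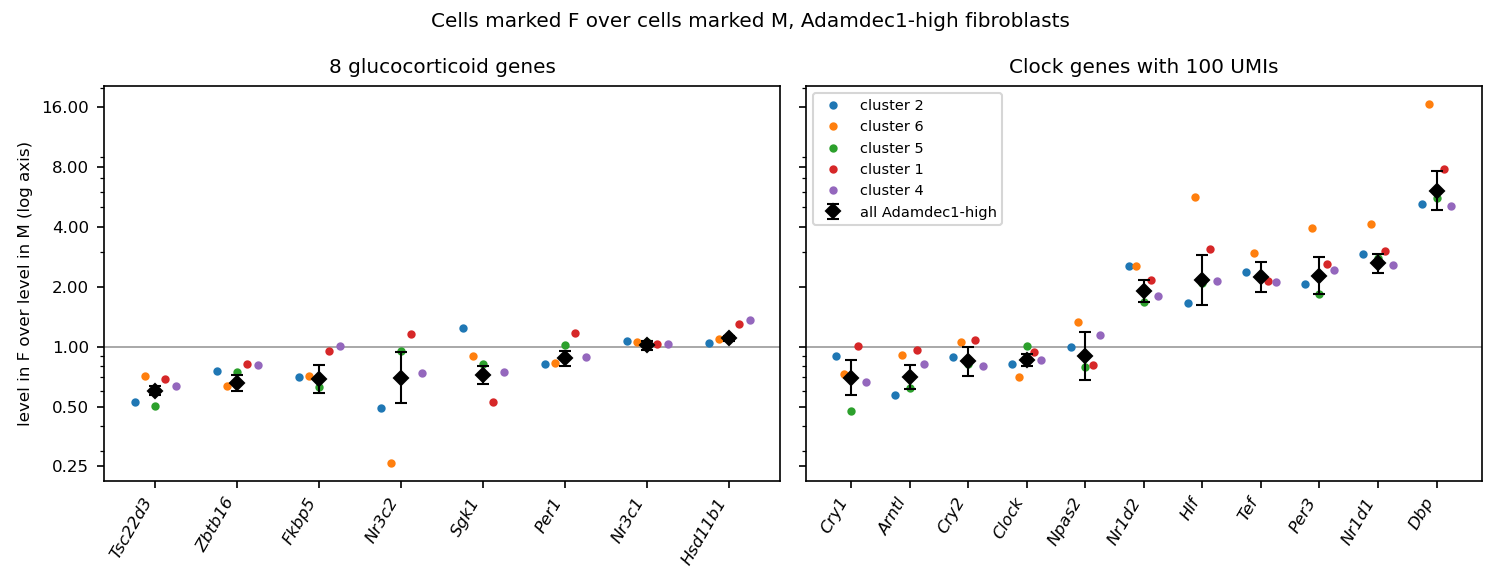
Level in cells marked F over level in cells marked M (log axis) for the 8 genes (left) and the clock genes with at least 100 UMIs (right) in Adamdec1-high fibroblasts: black diamonds with exact 95% intervals for all cells, coloured points for single clusters with at least 20 UMIs of the gene. The 5 response genes lie below 1, from 0.601 for Tsc22d3 to 0.874 for Per1, and Dbp lies highest at 6.05.

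The Amotl2 pattern was present under both marks. The Hsd11b1 ratio was 0.517 (0.477 to 0.560) in cells marked M and 0.637 (0.60 to 0.677) in cells marked F, and the Fkbp5 ratio 0.499 (0.333 to 0.723) and 0.585 (0.408 to 0.823). Sgk1 was 1.74 (1.45 to 2.08) and 1.31 (1.07 to 1.59). Tsc22d3 was 1.0 (0.917 to 1.09) in M and 1.21 (1.10 to 1.33) in F.

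Over the 10 clusters, the genes whose log2(CPM + 1) was closest to that of each member were listed by Pearson correlation among 8254 genes, as a description over points that share 1 library. For Hsd11b1 they were Mmp16 (0.95), Sfrp1 (0.94) and Matn2 (0.94), which encode a membrane metalloproteinase, a secreted Wnt antagonist and a matrix protein. For Fkbp5 they were Vsir (0.97), Sesn1 (0.96) and Evc (0.93). Zbtb16 was closest to Crem (0.98), a transcription factor gene of the cyclic AMP response, Hlx (0.97) and R3hcc1l (0.96). Those for Nr3c2, whose values rest on few UMIs, were Miip (0.98), Mpnd (0.97) and Ccnd2 (0.96). Per1 had Cnot3 (0.96), Mtrf1l (0.95) and Pgghg (0.95). For Tsc22d3, Nr3c1 and Sgk1 the closest genes were Ttpal (0.93), Pja1 (0.92) and Ipo4 (0.91), BC003331 (0.93), Lrp10 (0.92) and Thap12 (0.90), and Mrs2 (0.90), Rragc (0.88) and Rab1a (0.88). Between members the highest were Zbtb16 with Per1 (0.87) and Tsc22d3 with Nr3c1 (0.86), and the lowest was Sgk1 with Hsd11b1 (-0.68). Fkbp5 with Hsd11b1 gave 0.67.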

How the data were processed

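RNA of sorted stromal cells was measured in 1 library with a droplet kit that reads 3-prime ends. The authors aligned reads to mm10 with Cell Ranger 3.0.2, removed immune and endothelial cells, and filtered the rest to 1000 to 6000 genes per cell, up to 7% mitochondrial UMIs and genes present in 3 or more cells (Seurat 3.0.1 in the submitters' processing notes). In the deposited table the authors gave UMIs scaled to 10000 per cell, plus 1, as a natural log. From these, 100% of nonzero values gave whole UMIs (tolerance 0.001), and all levels were computed from the recovered UMIs.

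Clusters were built with Seurat 5.3.0 (2000 variable genes less the 8 genes and the response, YAP/TAZ target and sex-linked lists, regression on depth and mitochondrial percent, 30 components, Louvain resolution 0.5). A marker counted in a cluster when detected in 10% of its cells or more, at 0.5 or more of the highest cluster's level. A name needed at least 3 markers and most of its list, a rule set after cluster levels had been seen. Clusters left after 5 named classes were kept together as Adamdec1-high, although the written design would have kept only those met by the vFB1-2 list, which left out both clusters high in Amotl2. Cell classes named in this way need not match the study's.

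Intervals were exact throughout (Poisson for levels, conditional binomial for ratios, Clopper-Pearson for shares). A count of 0 was read as up to 3 UMIs. Each cell was thinned to 5000 UMIs for shares and strata, leaving out 94 shallower cells. A called ratio was at least 2 in either direction between classes and 1.5 elsewhere, among genes with at least 100 UMIs. No p-value was computed, since cells of 1 library are not replicates. Doublets were limited by the authors' gene filter, and the 9 calls of Scrublet (scanpy 1.11.5) were too few to use. The ratios and their intervals were tested on simulated data. Symbols and coordinates came from GENCODE M21, promoter windows from RefSeq. The genes named were the 8 members, genes with the 2 highest or 2 lowest ratios of the response and machinery lists in each comparison (except 1 gene that is not reported here), some of those of the clock, early gene and YAP/TAZ lists, and the 3 closest genes of each member. The members and lists were chosen with earlier results of these data known.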

Additional observations from a re-analysis of the deposited data

How the results depend on the processing

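With 1 library, all values describe that library, and depth limits Nr3c2 everywhere and every member in the vFB3-like, SMC-like and MC-like cells. No paired analysis was possible because the values come from 1 library and no test. Over 12 alternatives of clustering, naming, cell filters, marks and free RNA, 427 class ratios stayed inside the main interval and 53 did not, and no called ratio changed direction. Of the Amotl2 ratios 103 stayed inside and 49 did not, and of the response members' ratios by Hsd11b1 count 15 stayed and 5 did not. The count of pairs of member and class past 2 was 8 with cells marked F only or with classes from marker scores per cell and 16 with at most 5% mitochondrial UMIs, against 12. For Amotl2, the count of members past 1.5 (2) was 1 with thinning to 2000 UMIs, where the Hsd11b1 ratio was 0.705, and 4 with cells marked M only (3 with the minimum of 100 UMIs kept). It was 0 within cluster 1, 0 within cluster 4 and 4 within cluster 6 (1 with that minimum), which were added after the data were seen. For single clusters the share of all genes past 1.5 was not computed. The share of Adamdec1-high fibroblasts with an Hsd11b1 UMI was 55.6% with thinning to 2000 UMIs and 91.6% without thinning, by construction. In the response list, 4 genes (2 higher, 2 lower) instead of 1 (lower) were past 1.5 below the median early gene level, and 2 with a minimum of 20 UMIs. By Hsd11b1 count, 2 response members were past 1.5 with cells marked M only, 0 with cells marked F only and 2 below the median early gene level (Fkbp5 and Zbtb16, both higher), against 1 (Sgk1, lower). The share of all genes was computed only over all Adamdec1-high cells for this comparison. Between the marks, 2 members were past 1.5 (Tsc22d3 and Zbtb16), against 1 in cluster 1 (Sgk1), 1 in cluster 4 (Tsc22d3) and 1 below the median early gene level (Tsc22d3). The causes of these changes were not tested.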
